A study of Mus musculus with 10 samples.

Results

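The products of 10 interferon-induced genes were followed across lungs of neonatal mice: the Mx GTPase genes Mx1 and Mx2, viperin (Rsad2) and its genomic neighbour Cmpk2, tetherin (Bst2), the membrane proteins Ifitm1, Ifitm2 and Ifitm3, the ubiquitin ligase Rnf213 and the apoptosis regulator Xaf1. Members were all probe sets whose platform annotation gave 1 gene symbol among these 10, which yielded 15 probe sets out of 45037 other than controls on the Affymetrix Mouse 430 2.0 array. The genes were chosen by their antiviral family, with the measured log2 changes between smoke and control lungs already known, so their differences between the groups are given as descriptions. Where a member is said to pass or to be called, this reports its place in a fit across all probe sets and is not a test of the members, because the choice already used this contrast. All 10 lungs came from C57BL/6J mice aged 2 weeks, with sex, litter and array batch not given. The 4 control mice breathed filtered air and were housed apart from the exposed animals. The smoke group held 6 mice that spent time with their mother in a cigarette smoke chamber from the age of 1 day, for 1 hour daily over 7 days and then 2 hours daily over 7 days, with particulate matter averaging 90 mg per cubic metre. Each lung was measured whole, with 1 array per mouse. Housing and smoke exposure differed together between the groups and cannot be told apart. Below, fell or rose means lower or higher on smoke arrays than on control arrays, and after smoke means on smoke arrays.

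Type I interferon binds a receptor on nearly every cell, and the receptor's Janus kinases activate a transcription factor complex that holds Irf9. That complex binds the interferon-stimulated response element in promoters and switches on a broad set of antiviral genes, among them the restriction factors, which each block a different step of virus growth. Airway and alveolar epithelium, endothelium and resident leukocytes of the lung all can express them, and many are present at a low level without infection. C57BL/6J mice, like most inbred strains, carry defective Mx genes: RefSeq annotates both Mx1 and Mx2 of this strain as transcribed pseudogenes (GRCm38.p6), so their probe sets report the transcript and not an antiviral protein.

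Some arrays stood apart. The 3' to 5' signal ratio of actin was 31.6 and 29.4 on smoke arrays 1 and 2, against 3.96 to 10.4 in controls and 2.18 to 10.3 on the other smoke arrays. Smoke arrays 5 and 6 had the lowest ratios, 2.18 and 2.98, and were the smoke arrays high in Xist (log2 14.09 and 14.01), as were control arrays 2 and 4 (13.96 and 13.98). Results are therefore also given without each pair. The labelled tissue was borne out by its markers: 15 of 15 lung epithelial and endothelial markers were measured above the filter on dim probe sets. Of these, 0 passed the test between groups in either direction (limma, adjusted p under 0.05). Their summed intensity ran from 139641 to 161640 in controls and from 123685 to 178317 after smoke. Bright markers such as Scgb1a1, Ager and Sftpc (control log2 means of 14.46, 14.39 and 14.38) weighed most in it. The sum says little about dim ones such as Tie1, at 251.9 to 420.8 in controls and 30 to 494.6 after smoke.

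Promoters are shown because most of these genes are known targets of that complex. RefSeq (GRCm38.p6) promoter windows, 250 bases before to 50 bases after the gene start, matched 8 of the 10 genes, all but Mx1 and Mx2. The core of the interferon-stimulated response element was searched on both strands as GAAA, then NN for any 2 bases, then GAAA. Windows of 4 of the 8 genes held it (Rsad2, Bst2, Ifitm2 and Ifitm3), against 6 of 27 other antiviral effectors with a window, 1 of 24 relatives and partners of the members, 13 of 33 genes of the upstream interferon pathway (these lists are described below with their values) and 3.99% of 27025 genes. The windows of Cmpk2, Ifitm1, Rnf213 and Xaf1 held no match. In the fit described below, Cmpk2 and Rnf213 were called lower in smoke, and Ifitm1 and Xaf1 were not called. Among genes with a match, Rsad2, Bst2 and Ifitm3 were called lower and Ifitm2 was not called. Whether a match goes with the difference was not tested. A match is a description of the sequence only, and a shared or variant site that these letters miss is not counted. In the stretches below, written 5' to 3' on the gene strand, capitals mark the matches; Ifitm1 was added after its values were seen, as the family member whose level hardly differed.
Rsad2, bases 145 to 86 before the start, minus strand, chr12:26456538-26456597: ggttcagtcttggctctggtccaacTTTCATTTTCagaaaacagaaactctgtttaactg
Bst2, bases 155 to 90 before the start, minus strand, chr8:71537562-71537627: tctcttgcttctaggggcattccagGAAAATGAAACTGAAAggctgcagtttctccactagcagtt
Ifitm2, bases 71 to 12 before the start, minus strand, chr7:140955973-140956032: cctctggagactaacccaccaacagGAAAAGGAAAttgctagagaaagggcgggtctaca
Ifitm3, the first 30 bases from the start, minus strand, chr7:141010715-141010744: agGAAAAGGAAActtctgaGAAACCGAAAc
Ifitm1, bases 100 to 1 before the start, plus strand, chr7:140967976-140968075: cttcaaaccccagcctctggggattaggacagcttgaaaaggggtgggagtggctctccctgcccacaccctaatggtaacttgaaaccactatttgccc

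**Figure D1:**
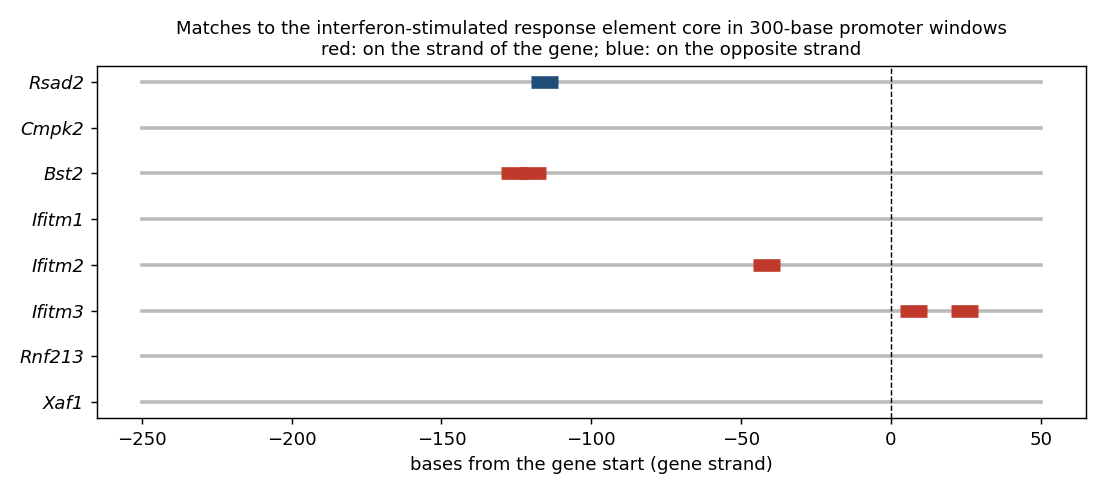
Matches to the response element core in the 300-base promoter windows of the 8 genes with a RefSeq window; the horizontal axis is distance in bases from the gene start and each coloured bar is 1 match (overlapping matches of Bst2 merge). The match of Rsad2 begins at base -120 and the first of Bst2 at -130, that of Ifitm2 begins at -46, and Ifitm3 has 2 matches just after the start.

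Most of these genes, chosen with this contrast known, read lower on smoke arrays than on control arrays. Where a gene had several tested probe sets, the brightest on average stood for it. Of 9 genes tested, 6 passed the threshold and were lower (limma across all probe sets, Benjamini-Hochberg adjusted p under 0.05), 0 were higher and 3 did not pass (Ifitm1, Ifitm2 and Xaf1). Over all 13382 genes tested, 0.702% were lower and 0.0224% higher by the same rule; since this contrast was known when the genes were chosen, nothing is read from these shares. In 7 of the 9, the 6 smoke arrays lay below all 4 control arrays, against 2.11% of all genes. The median log2 change was -2.33, against 0.06 over all genes. In whole lung, fewer cells of a type and less RNA per cell cannot be told apart. Neither can smoke exposure and the separate housing of the controls, including any difference that raised these genes in controls. When smoke arrays 1 and 2 were left out, all 10 members were tested and 6 were lower (0.887% of all genes). They were not the same 6: Ifitm3 was no longer called, and Mx2, under the filter on dim probe sets with all arrays, was. Mx2 entered once smoke arrays, dim for it, were left out, so its place in this count and the next rests on its bright controls. When smoke arrays 5 and 6 were left out, 9 of 10 were lower (2.46% of all genes), Ifitm1 being the exception. That fit kept control arrays 2 and 4, which were high in Xist, and no smoke array that was, so its groups also differed in Xist.

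**Figure D2:**
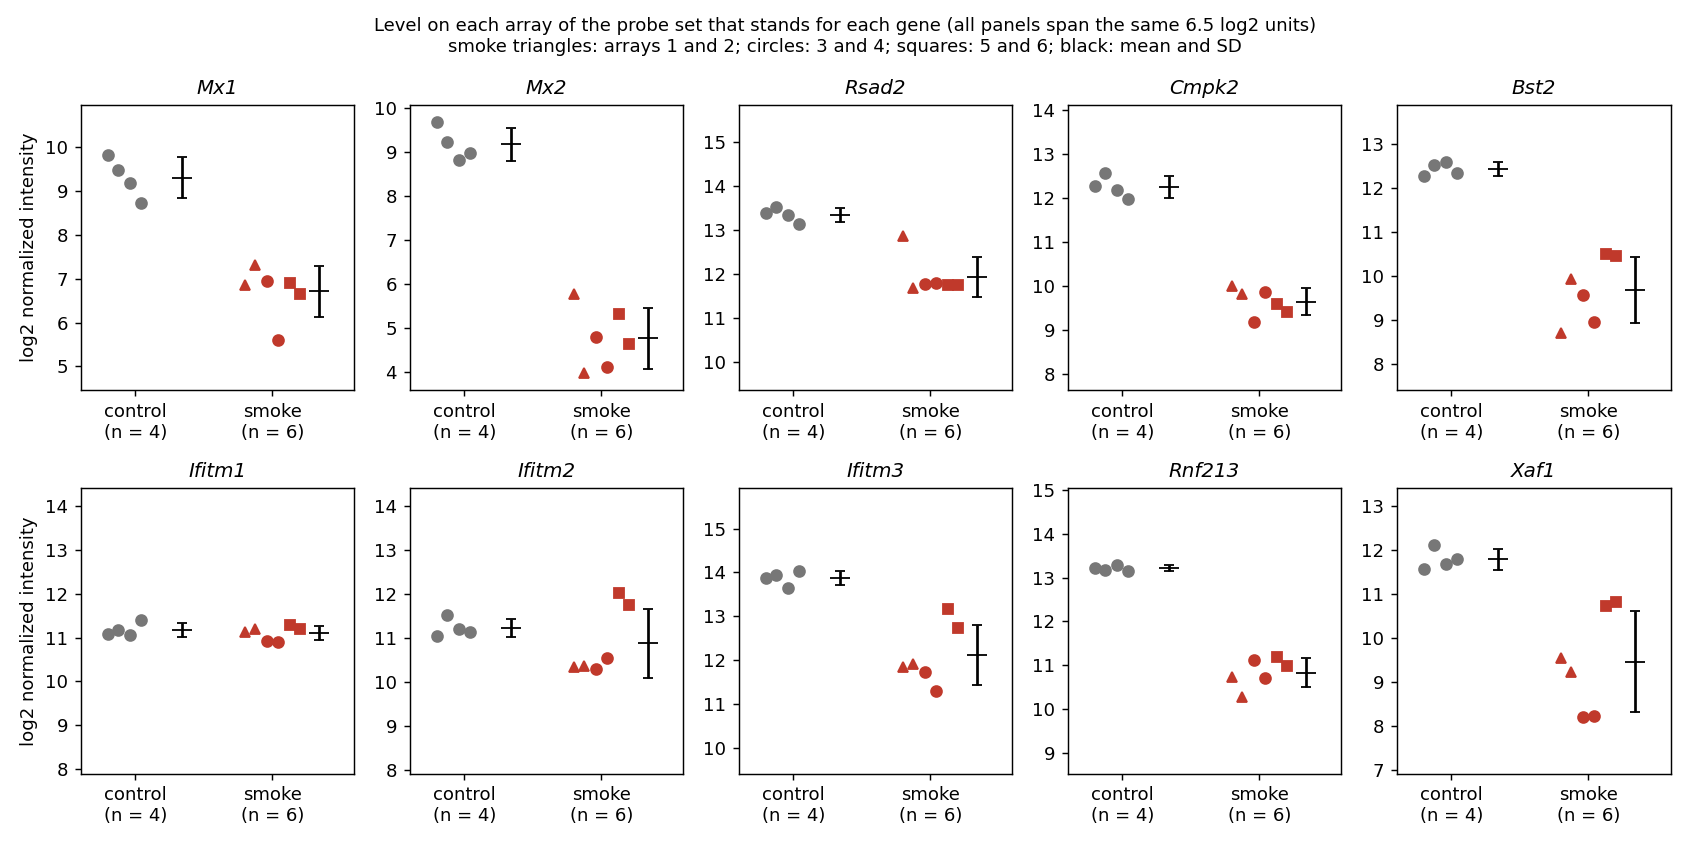
Log2 normalized intensity (vertical axis) of the probe set standing for each of the 10 genes on every array, with the mean and SD in black; grey, 4 control arrays, red, 6 smoke arrays. The groups do not overlap except for Ifitm1 and Ifitm2, and for Ifitm2 smoke arrays 5 and 6 lie above every control and the other 4 below.

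Mx1 encodes a nuclear GTPase of the dynamin superfamily that blocks influenza virus in strains with an intact gene. Its deposited intensity was 925.4, 684, 560.6 and 431 on control arrays 1 to 4, and ran from 61.8 through a median of 114 to 159.4 on the 6 smoke arrays. The control arrays spread over a wider range than for most other members, but even the lowest was more than the highest smoke array. The control mean on the log2 scale was 9.30 ± 0.46 (SD, n = 4) and the smoke mean 6.71 ± 0.58 (SD, n = 6). The log2 change was -2.58 ± 0.33 (SE), a 6.00-fold lower level, and stayed between -2.84 and -2.39 over all alternative settings. Mx1 passed in each of the 23 settings in which it was tested.

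Mx2 is the second mouse Mx gene, whose protein is cytoplasmic where the gene is intact. It was read by 1 probe set that was dim after smoke, so it lay under the filter and has no call in the setting used throughout. It entered the fit in 12 of the 24 alternatives and passed in all 12, among them those without the filter or with a higher floor. It was tested when any 1 smoke array was left out, and never when a control array was. Its bright control arrays thus carried it past the filter on the mean, so the 12 passes are no added support. Deposited intensities were 849.3, 582.8, 435.5 and 520.1 on control arrays 1 to 4, and ran from 14.3 through a median of 25 to 74.9 on smoke arrays. No smoke array came near the lowest control. The control mean on the log2 scale was 9.19 ± 0.38 (SD, n = 4) and the smoke mean 4.77 ± 0.69 (SD, n = 6), a difference of -4.42 that depends in part on the floor of the scale (log2 of 3.98), where smoke array 2 lay. With the floor raised to the 25th percentile of the table the difference was -3.49.

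Rsad2 encodes viperin, a radical SAM enzyme that makes a modified nucleotide which stops viral RNA polymerases. It was read by 3 probe sets, and they differed in size. On the brightest, 1436058_at, deposited intensities were 9919.9, 12467.2, 10677.4 and 8133.3 on control arrays 1 to 4. On smoke arrays 2 to 6 they were 3477.7, 3474.1, 3283.7, 3457.4 and 3520.8, close to each other, while smoke array 1 stood at 8553.9. Smoke array 1 therefore exceeded control array 4 in the deposited values, and lay below it after quantile normalization (log2 of 12.88 against 13.13). The log2 change on this probe set was -1.41 ± 0.22 (SE), from 13.35 ± 0.17 (SD, n = 4) to 11.94 ± 0.46 (SD, n = 6). The call was lost with values as deposited and without control replicate 1, 2 or 3, and held in the other 20 of 24 settings.

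On probe set 1421009_at of Rsad2 the change was larger, -3.59 ± 0.44 (SE). Control arrays 1 to 4 read 4446, 4090.6, 4640.2 and 3268.8, and smoke arrays ran from 93.8 through a median of 419.9 to 629.9. Smoke array 1, at 310.9, was low on this probe set, in contrast to its reading on the brightest one. The change on 1421009_at was -3.04 with smoke arrays 1 and 2 left out and -3.99 with arrays 5 and 6 left out. The third probe set, 1421008_at, had a change of -1.45 ± 0.32 (SE) and did not pass the threshold, although its 6 smoke arrays lay below every control. All 3 probe sets thus had negative log2 changes, by 2.65-fold, 12.0-fold and 2.73-fold in turn from the brightest. Why they differ in size was not tested.

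Cmpk2 encodes a mitochondrial nucleoside monophosphate kinase that can supply the nucleotide used by viperin, and is the next gene to Rsad2 on chromosome 12 in RefSeq. On its bright probe set, 1450484_a_at, control arrays 1 to 4 read 5010.7, 6466.2, 4868.2 and 3974.1. Smoke arrays ran from 594.3 through a median of 821 to 940.1, and none approached the lowest control. The control mean on the log2 scale was 12.25 ± 0.24 (SD, n = 4) and the smoke mean 9.64 ± 0.31 (SD, n = 6), a change of -2.61 ± 0.20 (SE) or 6.11-fold. It passed in all 24 settings, and ran from -2.73 to -2.49. The second probe set, 1422095_a_at, was dim (43.2 to 144.9 in controls, 17.8 to 74.2 after smoke), lay under the filter and had overlapping groups, with a difference of -1.66 in the same direction. Smoke array 1 was the highest of the 6 on the bright probe sets of both neighbours, and of these 2 only on that of Rsad2 did it stand clear. On the dim Cmpk2 probe set it also stood above the rest, at a log2 of 5.77 against 4.75 for the next, smoke array 6.

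Bst2, tetherin, holds budding virions to the cell surface and in mice is also a surface marker of plasmacytoid dendritic cells. Control arrays 1 to 4 read 4989.2, 6271.7, 6382.4 and 4962.3. Smoke arrays 1 to 6 read 448.3, 897.5, 775.2, 525.4, 1557.3 and 1511.4. All 6 were well under the controls, and arrays 5 and 6 were the highest. The control mean on the log2 scale was 12.44 ± 0.16 (SD, n = 4) and the smoke mean 9.68 ± 0.75 (SD, n = 6). The change of -2.75 ± 0.34 (SE), or 6.74-fold, passed in all 24 settings, and was -3.20 with smoke arrays 5 and 6 left out and -2.51 with arrays 1 and 2 left out.

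Of 12 markers of plasmacytoid dendritic cells other than Bst2, 10 were tested, 0 passed in either direction and the median log2 change was 0.42. Their summed intensity ran from 11576 to 13295 in controls and from 10417 to 15015 after smoke. Tcf4 made up most of this sum, with a log2 mean of 13.31 in controls against 8.98 for the next brightest, Cox6a2. The sum therefore says little about the other markers. Siglech, which defines the type, read 39.4 to 175.5 in controls and 72.3 to 231.5 after smoke, dim in both groups and overlapping (log2 change of 0.36 ± 0.43, limma, adjusted p = 0.799). Whether these cells had a part in the lower Bst2 was not tested.

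The 3 Ifitm proteins sit in cell membranes and hinder the fusion of enveloped viruses, Ifitm3 mainly in endosomes and Ifitm1 at the cell surface. Their genes lie in one cluster on chromosome 7, where Ifitm2 and Ifitm1 are neighbours and Ifitm3 lies next to Ifitm6. The 3 differed from each other in these lungs. Ifitm3 read 13508.2, 16016.9, 12841.1 and 14419.9 on control arrays 1 to 4 and 3384.6, 4226.8, 3413.6, 2372, 7483 and 6033.4 on smoke arrays 1 to 6. Every smoke array was below every control, and arrays 5 and 6 lay above the other 4. The control mean on the log2 scale was 13.87 ± 0.17 (SD, n = 4) and the smoke mean 12.12 ± 0.69 (SD, n = 6), a change of -1.76 ± 0.31 (SE) or 3.38-fold. It was -2.28 with smoke arrays 5 and 6 left out and -1.53 with arrays 1 and 2 left out. The call held in 14 of 24 settings; it was lost in 7 of the 10 single omissions (each control array and smoke arrays 1, 2 and 3), without smoke arrays 1 and 2, with median centring and without the filter.

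Ifitm2 split the smoke arrays. Controls 1 to 4 read 2185.8, 3025.6, 2423.7 and 2276.1. Smoke arrays 1 to 4 read 1161.7, 1246.8, 1285.9 and 1446.6, all below the lowest control, while smoke arrays 5 and 6 read 4065 and 3494.4, above the highest. The log2 change over all arrays was -0.35 ± 0.36 (SE) and did not pass. It was -0.86 with smoke arrays 5 and 6 left out, where it passed, and -0.08 with arrays 1 and 2 left out; it passed in 2 of 24 settings. With array weights the sign turned, at 0.04. Smoke arrays 5 and 6 are also the arrays with the lowest actin ratios and the only smoke arrays high in Xist; the part of either in this split was not tested. The control arrays high in Xist, 2 and 4, read 3025.6 and 2276.1, and the other controls, 1 and 3, read 2185.8 and 2423.7.

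Ifitm1 hardly differed between the groups. Control arrays 1 to 4 read 2229.4, 2300.7, 2149.5 and 2754.9, and smoke arrays ran from 1831.1 through a median of 2183 to 2593.3. The groups overlapped, with 2 smoke arrays below every control and 0 above. The log2 change was -0.07 ± 0.15 (SE), from 11.17 ± 0.16 (SD, n = 4) to 11.10 ± 0.16 (SD, n = 6), and lay between -0.19 and 0.01 over all settings, none of which gave a call.

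The other Ifitm genes on the array extend the family. Ifitm6, which is expressed mainly in myeloid cells, fell, with a log2 change of -1.39 ± 0.22 (limma, adjusted p = 0.0128) from 9.96 ± 0.17 (SD, n = 4) to 8.57 ± 0.38 (SD, n = 6), with all 6 smoke arrays below the 4 controls. Its call was lost without control replicate 1, 2 or 3 (adjusted p of 0.0512, 0.0801 and 0.0791) and held under the other alternatives. Ifitm7 had a log2 change of 0.22 ± 0.33 (adjusted p = 0.846, limma). Ifitm5, known from bone-forming cells, and Ifitm10 lay under the filter, at 36.1 to 155.8 and 44.9 to 184.3 over all arrays, with overlapping groups.

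Myeloid cells express Ifitm3 and Ifitm6, and some markers of these cells were lower as well. Of 14 neutrophil markers, 11 were tested, 4 fell and the other 7 were not called; the median log2 change was -0.84. Their summed intensity ran from 28838 to 40482 in controls and from 9304 to 19401 after smoke. S100a8 and S100a9, which fell, made up most of this sum, with log2 means of 14.12 and 13.53 in controls. The 7 not called ran from -2.57 for Il1r2 to 0.00 for Ngp. Of 15 macrophage and monocyte markers, 14 were tested and 1 fell, the Fc receptor gene Fcgr1 (-1.22 ± 0.21; limma, adjusted p = 0.0215), with a median of -0.60. The other 13 were not called and ran from -1.285 for Marco to 0.09 for Csf1r. The sum over all 14 ran from 30647 to 40719 in controls and from 24763 to 35067 after smoke, with overlapping groups. The defining neutrophil marker Ly6g had no probe set with 1 matching symbol here, and no tested neutrophil or macrophage marker lay at the floor on every array. The part of these cells in the lower Ifitm3, Ifitm6 and other members was not tested.

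Rnf213 encodes a very large ubiquitin ligase with an ATPase core that coats bacteria and binds ISG15-modified proteins. On its bright probe set, 1455500_at, control arrays 1 to 4 read 8956.7, 9706.3, 10327.8 and 8218.6. Smoke arrays ran from 1174.9 through a median of 1883 to 2428.9, all far below the controls. The controls were tight, with a log2 mean of 13.21 ± 0.07 (SD, n = 4), and the smoke mean was 10.84 ± 0.34 (SD, n = 6). The change of -2.37 ± 0.18 (SE), or 5.17-fold, passed in all 24 settings, and was -2.08 without smoke arrays 1 and 2. The second probe set, 1460018_at, went the other way: it was dimmer, at 124.9 to 210.5 in controls and 174.8 to 393.5 after smoke, with a log2 change of 0.67 ± 0.28 (SE) that did not pass. Smoke arrays 1 and 2 were its highest, at 393.5 and 381.5, and without them the change was 0.40. The array's annotation gives no position of either probe set in the gene.

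Xaf1 binds and counteracts the apoptosis inhibitor Xiap. On the brighter probe set, 1443698_at, control arrays 1 to 4 read 3100.1, 4687.4, 3420.7 and 3564.4 and smoke arrays 1 to 6 read 723, 528, 301.9, 342.8, 1798.3 and 1948. All 6 smoke arrays lay below all 4 controls, with arrays 5 and 6 again the highest. Its spread after smoke was the widest among the probe sets that stood for the 10 genes, at 9.46 ± 1.15 (SD, n = 6) against 11.79 ± 0.23 (SD, n = 4) in controls. The change of -2.33 ± 0.50 (SE), or 5.04-fold, did not pass in the setting used throughout and passed in 6 of 24 alternatives. Those were the settings without smoke array 5, without array 6 or without both, where it was -2.99, and 2 settings with all arrays. The latter were the actin ratio as a covariate and the rule of the design text, which used unadjusted p under 0.05. The dimmer probe set, 1443621_at, had a change of -0.42 ± 0.21 (SE) with overlapping groups and did not pass.

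**Figure D3:**
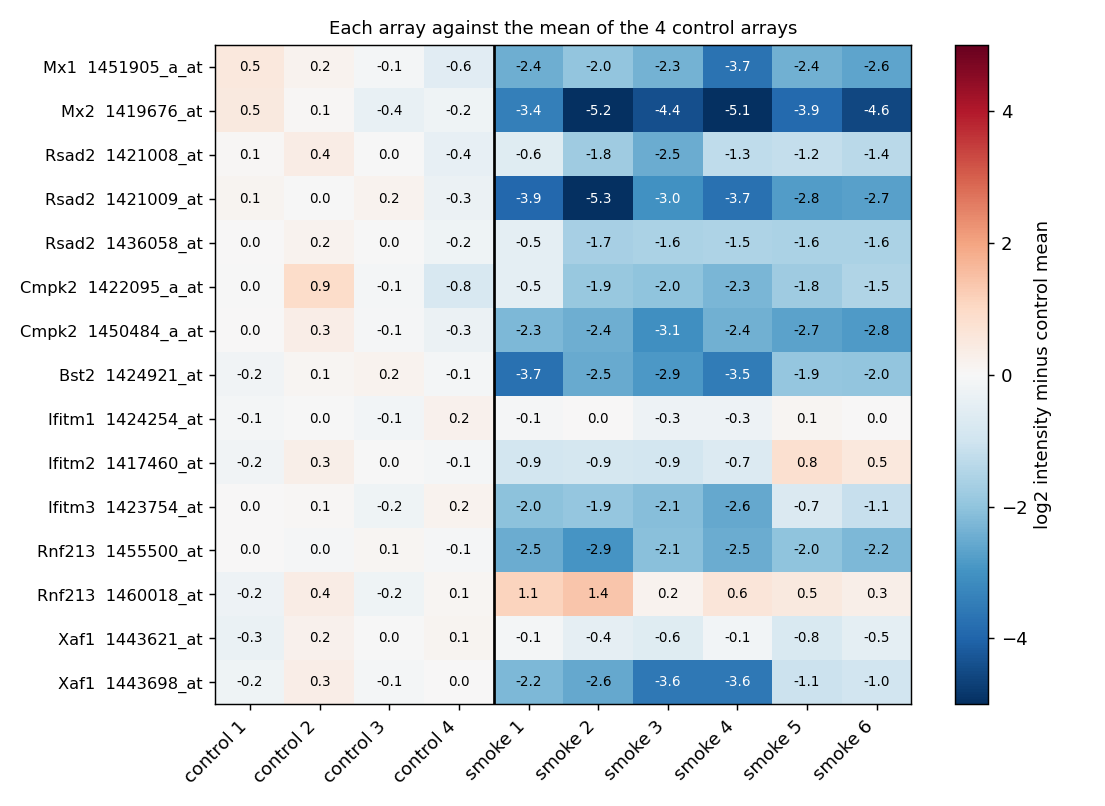
Log2 intensity minus the mean of the 4 control arrays for each of the 15 probe sets (rows) on each array (columns); blue is lower and red higher, and each cell gives its value. The smoke columns are blue for most rows, with Ifitm1 near 0, Ifitm2 red on smoke arrays 5 and 6, and the second Rnf213 probe set red throughout.

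Probe sets of one gene thus differed in size for Rsad2, Cmpk2 and Xaf1 and in direction for Rnf213. Among the 15 probe sets 13 were tested; 7 of these passed and were lower, and 0.54% of all 27022 probe sets tested did so, with 0.0111% higher. The 7 were those standing for Mx1, Rsad2, Cmpk2, Bst2, Ifitm3 and Rnf213 and the second Rsad2 probe set, 1421009_at.

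**Figure D4:**
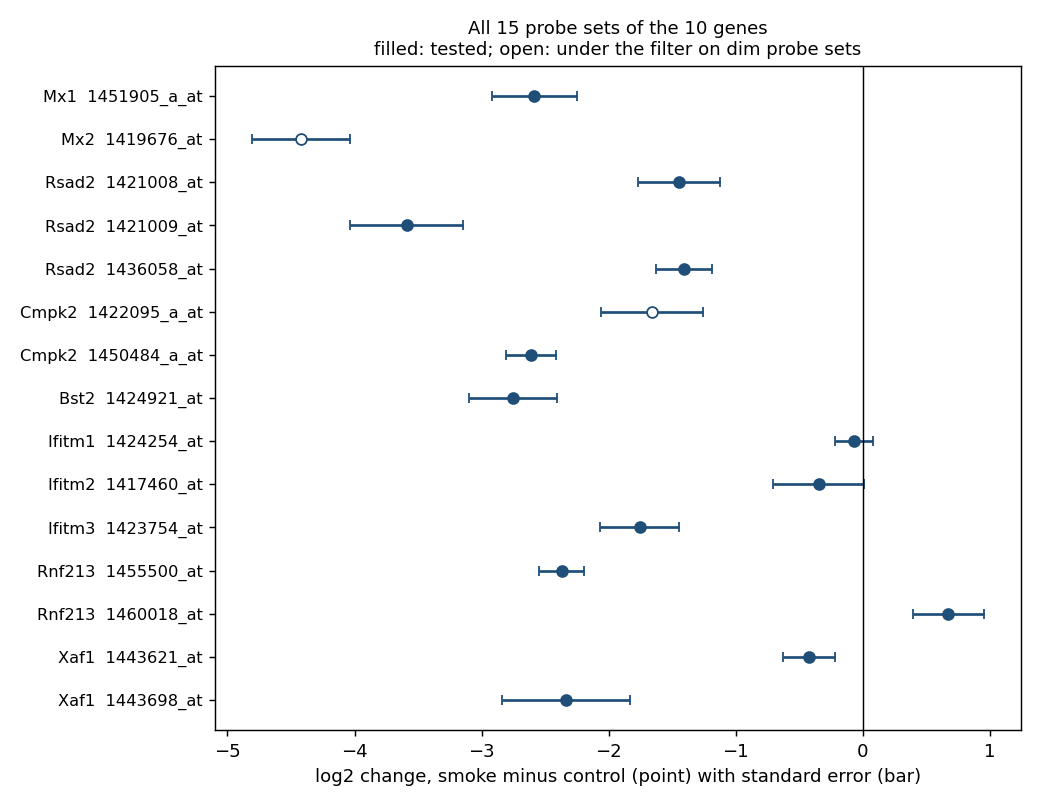
Log2 change, smoke minus control, with its standard error for all 15 probe sets; filled points were tested and open points lay under the filter. Values run from -4.42 for Mx2 to 0.67 for the second Rnf213 probe set, the only one above 0.

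Genes with the most similar pattern over the 10 arrays were found by the root mean square difference between log2 values, each centred on its gene's mean. For Mx1 the nearest were the guanylate-binding protein genes Gbp2 and Gbp3 and the ADP-ribosyltransferase gene Parp12, at 0.42 for each, against a median of 1.43 over all genes. For Bst2 they were the immunity-related GTPase gene Irgm2 at 0.21, Ifit2 at 0.33 and Gbp2 at 0.34 (median 1.52). For Rsad2 they were the chloride channel accessory gene Clca3a1 at 0.28, the torsin family gene Tor3a at 0.29 and Ifitm6 at 0.29 (median 0.89). For Ifitm3 they were the exonuclease gene Isg20 and Nmi at 0.32 for each and Ccdc85a at 0.34 (median 1.09). The nearest member was farther in all 4 cases, with Cmpk2 at 0.54 from Mx1, Rnf213 at 0.64 from Rsad2 and 0.55 from Bst2, and Xaf1 at 0.51 from Ifitm3. Members could be nearest only among the few other members tested, and other genes among all the rest. The larger distance therefore says nothing about how alike the members are. The difference between groups sets most of each pattern, so these distances are a description.

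Upstream genes of the pathway, from ligand to transcription factor, were read from a list of 36 that also held brakes on it such as Usp18 and Socs3. Of the 36, 27 matched a symbol and 19 were tested. Of the 19, 3 fell, 0 rose and 16 were not called, and the median log2 change was -0.05. Most ligand genes that matched were dim: those for Ifna1, Ifna4, Ifna5, Ifna9, Ifna11, Ifnab and Ifng lay under the filter with overlapping groups, and Ifnb1 had a log2 change of 0.49 ± 0.37 (limma, adjusted p = 0.678). Ifna2 was at 0.74 ± 0.35, with 5 of 6 smoke arrays above every control, and did not pass (limma, adjusted p = 0.514). The receptor genes Ifnar1 and Ifnar2 were at -0.05 ± 0.25 and -0.03 ± 0.26 (adjusted p of 0.957 and 0.982), and the kinase gene Jak2 and the type II receptor gene Ifngr1 were at -0.11 ± 0.15 and -0.03 ± 0.15. The other tested probe set of Jak2 was at -0.87 ± 0.69 and did not pass. The 3 that fell were Irf9, the DNA-binding partner of Stat2, at -1.46 ± 0.20, Irf7, which drives interferon genes, at -1.57 ± 0.22, and Usp18, a brake on the receptor, at -3.16 ± 0.19 (limma, adjusted p of 0.00381, 0.00523 and 1.14e-05). For all 3 the 6 smoke arrays lay below the 4 controls. Stat2 and Irf2, named after their values were seen, also had all 6 smoke arrays below the controls and did not pass, at -3.37 ± 0.73 and -0.70 ± 0.21 (limma, adjusted p of 0.0849 and 0.272); 2 smoke arrays of Stat2 lay at the floor. Irf1 was at -0.37 ± 0.16 and did not pass (adjusted p = 0.474, limma).

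Other products of antiviral defence were read from a list of 34. Of these 31 matched and 30 were tested; 12 fell, 0 rose and 18 were not called, and the median log2 change was -1.05, with 28 values below 0 and 2 above. The list was written with earlier results of these data known. The 4 with the smallest p were Ifi27l2a, a small mitochondrial protein gene, at -2.91 ± 0.26, Tor3a at -1.43 ± 0.18, and the nuclear body genes Sp100 and Pml at -1.53 ± 0.21 and -1.74 ± 0.25 (limma, adjusted p of 0.000157, 0.00188, 0.00422 and 0.00645). For each the 6 smoke arrays lay below the 4 controls. Other tested probe sets were at -1.35 and -0.55 for Tor3a and at -0.82 and -0.85 for Pml. The brightest that did not pass were Serinc3, a membrane protein gene known from retroviral restriction, at -0.29 ± 0.10, Ifi27 at -0.11 ± 0.15 and the helicase gene Helz2 at -0.66 ± 0.27 (adjusted p of 0.364, 0.832 and 0.441). Other tested probe sets of Serinc3 were at -0.45, -0.51, -0.69 and -1.50, and that of Ifi27 was at -0.35; none passed, although for the Serinc3 probe sets at -0.45 and -0.51 the groups did not overlap. The 12 became 14 with smoke arrays 1 and 2 left out, 18 with smoke arrays 5 and 6 left out, and 5, 4 and 5 without control replicate 1, 2 and 3 in turn.

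Relatives and partners of the members were read from a list of 25 genes: dynamins and mitofusins beside the Mx genes, other Ifitm genes, nucleotide kinases beside Cmpk2, radical SAM enzymes beside Rsad2, and the apoptosis inhibitors that Xaf1 is linked to. All 25 matched and 22 were tested, of which 1 fell (Ifitm6, above), 0 rose and 21 were not called, and the median log2 change was -0.04. Xiap, the target of Xaf1, was at -0.30 ± 0.23, Birc3 at -0.59 ± 0.28 and the dynamin-like mitochondrial gene Opa1 at 0.30 ± 0.18 (limma, adjusted p of 0.672, 0.517 and 0.588). Other tested probe sets of Xiap were at 0.11, 0.16 and -1.27, and that of Opa1 was at 0.45.

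**Figure D5:**
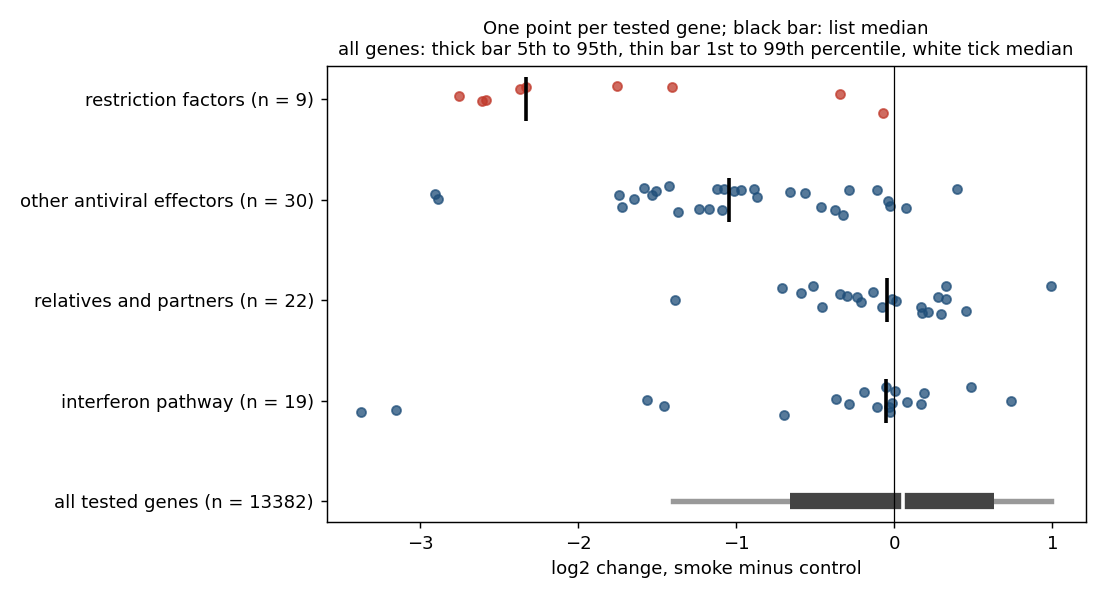
Log2 change, smoke minus control, of each tested gene (points) in 4 lists, with list medians (black bars), above the range of all 13382 tested genes. The medians are -2.33 for the restriction factors, -1.05 for other antiviral effectors, -0.04 for relatives and partners and -0.05 for the upstream pathway.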

How the data were processed

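Per the labels' protocols, lung RNA was isolated with Trizol, amplified, labelled and put on 1 array per mouse. The authors deposited 1 linear intensity per probe set and array. Which program made it is not given in the sources used here, and detection calls were not used. The arrays' medians spanned log2 values of 7.01 to 7.70. Here the single 0 was replaced by the smallest positive value, log2 was taken, and quantile normalization was followed by a floor, the 10th percentile over all values (15.8 as an intensity). Of 45101 probe sets, 64 controls were left out and the upper 60% by mean, 27022, were tested with limma 3.58.1 under R 4.3.3 (two-sided; lmFit, then eBayes with a variance trend), with Benjamini-Hochberg adjustment over all of them. Symbols came from the platform annotation. The fit was also run on simulated data with independent noise on each array. That noise held no shared array effects, so the run does not bear on the calls given here. As no label says how the mice relate, p-values measure only the spread between the arrays, whose number limits the precision; correlations between arrays ran from 0.823 to 0.948, and 0 pairs were identical. Members and lists were chosen with earlier results of these data known. Named from each list were the 4 genes of smallest p among those that passed and the 3 brightest that did not, with values added for receptors, ligands, Ifitm relatives and Fcgr1; nearest patterns left out clone names. Standard errors of probe sets under the filter came from a fit without it. Alternatives covered normalization, floor, filter, variance trend, array weights, replicate block, arrays left out, actin ratio, probe set type and the call rule of the design text. That rule used unadjusted p under 0.05 and a 1.5-fold change between pairs of arrays. Plots used matplotlib 3.10.9 in Python 3.11.15.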

Additional observations from a re-analysis of the deposited data

Results flagged for a closer look

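Among the 30 sets of values examined (15 probe sets in each of the groups), 1 held an array far from the rest by Dixon's criterion, which chance alone meets in about 1 in 20. It was Rsad2 on probe set 1436058_at, where smoke array 1 had a log2 intensity of 12.88 and the nearest other smoke array 11.81, so that the gap took up 0.90 of the group's range. The other probe sets of Rsad2 placed smoke array 1 at 8.66, the highest of the 6, and at 8.02, within the range of the others. Smoke array 1 also had the highest actin 3' to 5' ratio, 31.6; its part in the reading was not tested.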

How the results depend on the processing

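The count of members lower, 6, was 4 to 8 over single omissions of an array and 5 to 9 under the other alternatives, against 58 to 101 and 76 to 339 for all genes (94 with all arrays). Mx2 is in these counts only where its bright control arrays carried it past the filter or no filter was used. Counts over all genes that moved by more than 1.5 times were, for lower genes, 58 and 60 without control replicate 2 and 3, 142 with array weights, 220 with the actin ratio as a covariate, 298 by the rule of the design text and 330 without smoke arrays 5 and 6, and, for higher genes (3 with all arrays), 8 as deposited, 5 with median centring or the higher floor, 7 without the filter, 10 in the upper 40% by mean or without smoke arrays 1 and 2, 41 with array weights, 151 with the actin covariate, 181 by the design text's rule and 424 without smoke arrays 5 and 6, and 1 to 7 over single omissions. Other antiviral effectors lower numbered 7 with median centring, 19 with the actin covariate and 4 to 12 over single omissions, and relatives lower 0 to 1. Same-numbered arrays of the 2 groups did not deviate together (correlations of -0.06 to 0.10), so the numbers are not read as pairs; with the replicate number as a block over arrays 1 to 4, 339 genes were lower and 451 higher, and 9 members, as without the block. The cause of these shifts was not tested. No member reversed a called direction under any alternative run. Dim probe sets (Mx2, the second Cmpk2 probe set, most interferon ligands) have no stated background, which limits how their values can be read.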
